A study of Mus musculus with 2 samples.

Results

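Levels of 33 genes of macrophages and other myeloid cells were read from total RNA of mouse heart, where these cells live among far more numerous muscle, vessel and connective tissue cells. The genes were taken by symbol from a fixed set of lineage, phagocyte, resident and monocyte-derived markers, and all 33 were found among the 55536 annotated genes. The series held 1 group of 2 libraries from hearts of female B6CASTF1/J mice, hybrids of C57BL/6J and a CAST strain, aged 14 days, with no treatment named in the labels. Each library was made from 300 ng of RNA, and ERCC spike-ins were added. Both carry the same donor label. The tissue note of replicate 1 mentions 3 females and that of replicate 2 a single female with another number, so whether the libraries stand for single or pooled animals is not clear. The SD given below (n = 2 throughout) is the spread between these libraries and may be technical in part. With 1 group, no test of a condition was possible.

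Macrophages take up dead cells and debris, and in the heart they also border the muscle cells and vessels. Some settle before birth and renew themselves in place. These resident cells are commonly marked by Lyve1, Timd4 and Folr2. Others come from blood monocytes, which enter tissue through the chemokine receptor Ccr2, and many of these carry MHC class II, the complex that shows peptides to helper T cells. Both kinds depend on Csf1r, the receptor for the growth factors Csf1 and Il34, and on the transcription factor encoded by Spi1.

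Levels are given in TPM (a count scaled for transcript length and to the same total in each library) from the deposited gene tables, called here the first quantification. A second set of deposited transcript tables, with column names of another program, was summed per gene and is called the second quantification. Replicate 1 held 36404376 expected counts (reads assigned to genes, which need not be whole) and replicate 2 held 34569708. At this depth a count of 0 would allow up to 3 counts, or 0.0829 and 0.0873 CPM (counts scaled to library depth). The 33 genes took 0.0297% of the counts of annotated genes in replicate 1 (95% Wilson interval 0.0291 to 0.0303) and 0.0241% in replicate 2 (0.0236 to 0.0247). Intervals cover counting error only. In whole tissue, fewer cells of a type and less RNA per cell cannot be told apart.

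All 33 genes had at least 12 counts in each library, so macrophage RNA was present under the heart label, whose cardiomyocyte list (5 of 5 genes detected) summed to 27628 and 29097 TPM. Of the 33 genes, 28 had a mean of at least 1 TPM and 7 a mean of at least 10. The median over the 33 was 3.42 TPM in replicate 1 and 3.46 in replicate 2, beside 9.03 and 9.16 for the 13043 annotated genes with a mean of at least 1 TPM. The order of mean levels ran from Lyz2 at 32.4 ± 9.21 TPM to Fcgr1 at 0.26 ± 0.099. Below Lyz2, C1qb (15.0 ± 3.35), C1qa (15.0 ± 1.99), Pf4 (14.9 ± 0.389), Csf1r (13.3 ± 0.212), C1qc (12.7 ± 2.76) and F13a1 (10.5 ± 3.46) followed. Of the 32 pairs of neighbours in the order of all 33, 25 had values that overlap between the libraries, so most places in it are not fixed by these data. The 7 pairs that did not overlap include Lyz2 above C1qb, Pf4 above Csf1r and Cd74 above Mrc1. The deposited TPM intervals still overlap for Pf4 and Csf1r in both libraries and for Cd74 and Mrc1 in replicate 1. The second quantification gave higher values for 32 of the 33, at 0.74 (Adgre1) to 1.89 (H2-Ab1) times the first, with a median of 1.19.

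**Figure D1:**
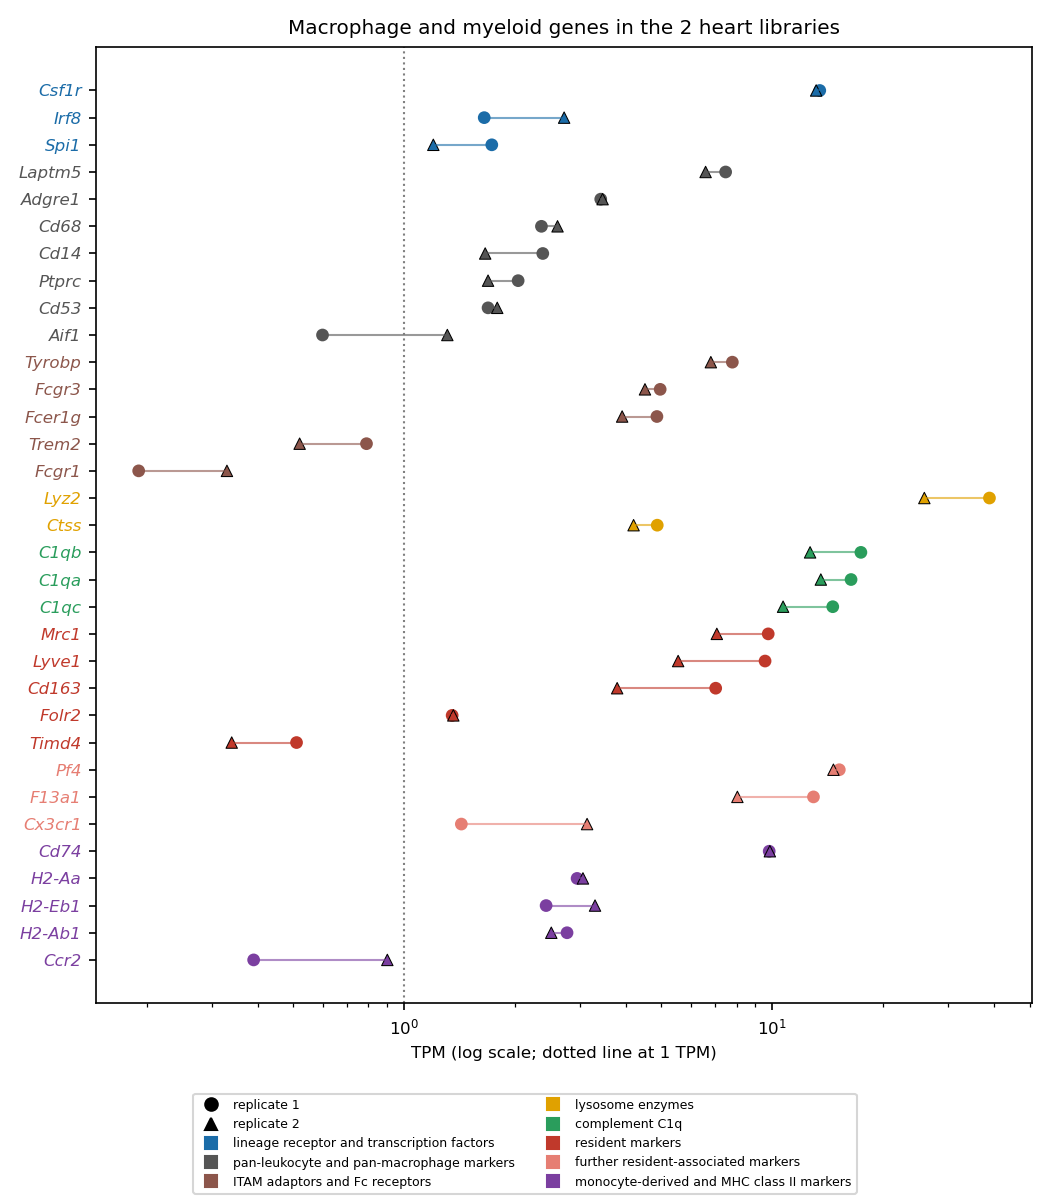
TPM of the 33 genes on a log axis, grouped by role, with a circle for replicate 1, a triangle for replicate 2 and a dotted line at 1 TPM. Lyz2 lies farthest right at 38.9 and 25.9 TPM, and Timd4, Ccr2, Fcgr1 and Trem2 lie left of the line in both libraries.

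The lineage was represented by its receptor and its transcription factors at unequal levels. Csf1r, without whose signal most tissue macrophages are lost, had 13.5 TPM in replicate 1 and 13.2 in replicate 2, almost the same in both. Spi1, which sets the myeloid program, was at 1.73 and 1.20 TPM with 53 and 52 counts. Irf8, a factor of monocytes, dendritic cells and macrophages, was at 1.65 and 2.72 TPM. Irf8 was the higher of these factors in replicate 2: the log2 ratio of Spi1 to Irf8 TPM was 0.07 in replicate 1 and -1.18 in replicate 2. In replicate 1 their order is not resolved, since the deposited TPM intervals overlap (1.26 to 2.71 for Spi1, 1.59 to 2.75 for Irf8). An opposite-strand gene, Hmgxb3, overlaps Csf1r at 8.27 and 7.26 TPM, and the sources used here do not say whether counting used strand.

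Both known ligands of Csf1r were measured. Csf1, made mainly by stromal and endothelial cells, was at 14.1 and 16.6 TPM in replicates 1 and 2, and Il34, the alternative ligand, at 4.17 and 2.49. Csf1 exceeded Il34 in both libraries, by a log2 ratio of 2.24 ± 0.69. Of the 11 genes of a list of myeloid growth factors and receptors, 6 reached 1 TPM. The highest members were the TGF-beta receptors Tgfbr2 (21.9 and 20.7 TPM) and Tgfbr1 (7.62 and 7.52), which many cell types carry, and Csf1.

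General leukocyte and macrophage markers were lower than Csf1r in both libraries. Laptm5, a lysosomal membrane protein of blood cells, led at 7.47 and 6.59 TPM in replicates 1 and 2. Adgre1, the F4/80 antigen of mouse macrophages, was at 3.42 and 3.46 TPM, and Cd68, a lysosomal glycoprotein, at 2.36 and 2.61. Cd14, the coreceptor for lipopolysaccharide, was at 2.38 and 1.66. Ptprc, which encodes the pan-leukocyte phosphatase CD45, stood at 2.04 and 1.69 TPM, below Csf1r by a log2 ratio of 2.84 ± 0.17. Cd53, a tetraspanin of leukocytes, was at 1.69 and 1.79 TPM. Aif1, which encodes the actin-binding protein Iba1, was close to the detection limit, with 12 and 16 counts and 0.60 and 1.31 TPM.

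Genes of activating signalling were led by an adaptor. Tyrobp, which carries the signal of Trem2 and other receptors, was at 7.79 and 6.81 TPM in replicates 1 and 2, and Fcer1g, the common Fc receptor chain, at 4.86 and 3.91. Replicate 1 was higher for both, and Tyrobp stayed above Fcer1g (log2 ratio of Fcer1g to Tyrobp -0.74 ± 0.08). Fcgr3, a receptor for antibody complexes, was at 4.96 and 4.51 TPM and the high-affinity receptor Fcgr1 at 0.19 and 0.33. The counts of Fcgr3 (172.2 and 152.5) were not whole, so its level depends on how reads were divided with another gene. Trem2, a lipid-sensing receptor, was at 0.79 and 0.52 TPM with 25 and 17 counts. The low levels of Fcgr1 and Trem2 rest on few reads, and their direction between the libraries is not resolved by the counts.

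A phagocyte enzyme, Lyz2, held the top place of the set in both libraries. The complement subunits C1qb and C1qa came next in the mean, though Pf4 (14.7 TPM) lay above both in replicate 2. Lyz2, the lysozyme of macrophages and granulocytes, reached 38.9 TPM in replicate 1 and 25.9 in replicate 2. It exceeded its near copy Lyz1, an enzyme of the gut (3.60 and 2.56 TPM), by a log2 ratio of 3.39 ± 0.07. The counts of Lyz2 were not whole, so reads were divided between it and another gene, and the size of that ratio depends on the division. Ctss, a protease that trims the MHC class II chaperone, was at 4.87 and 4.20 TPM. The C1q genes, which together form the recognition unit of the classical complement pathway and lie side by side on chromosome 4, had similar levels. C1qa was at 16.4 and 13.6 TPM in replicates 1 and 2, C1qb at 17.4 and 12.7, and C1qc at 14.6 and 10.7. Each was higher in replicate 1. The log2 ratio of C1qa to C1qb was 0.00 ± 0.13 and that of C1qc to C1qb -0.25 ± 0.0072, so the subunits were nearly equal in amount.

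Promoter sequences show what several of these genes have in common beyond their role. RefSeq promoters (GRCm38.p6, 250 bases before to 50 after each gene's start) were listed for 24 of the 33 genes, with 29 promoters in all. The letters AGGAAGT, a core of the site read by the protein of Spi1 and other ETS factors, were searched on both strands. They occurred in 12 of the 29 promoters (41.4%), belonging to 11 genes, beside 9.35% of all 32851 promoters of the same length. The genes were C1qb, C1qc, Cd53, Ctss, F13a1, Fcgr1, Folr2, Lyz2, Mrc1, Pf4 and Ptprc. A match is a description of the letters, not a bound site. The windows of 30 bases around the match in 7 genes with a mean of more than 4 TPM are printed 5′ to 3′ on the gene's strand, with the match in capitals (ACTTCCT is its reverse complement). F13a1 has another match 15 bases after its start.
Lyz2 (chr10:117282354-117282383, minus strand): gatcggtaggaACTTCCTgttttgcacaca
C1qb (chr4:136886235-136886264, minus strand): caggacctgaaACTTCCTgagggcagcagg
C1qc (chr4:136893091-136893120, minus strand): ggacggcagacACTTCCTcattttggcaca
Pf4 (chr5:90772414-90772443, plus strand): ttctgcagagcACTTCCTcatcctgtatcc
F13a1 (chr13:37049231-37049260, minus strand): tgggagccgttAGGAAGTtatttaagagcc
Mrc1 (chr2:14229192-14229221, plus strand): cacttctccccACTTCCTgcgttttctcct
Ctss (chr3:95526773-95526802, plus strand): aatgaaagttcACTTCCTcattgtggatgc

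In these windows the match began 100 bases before the RefSeq start in Lyz2, 53 in C1qb, 195 in C1qc, 10 in Pf4, 36 in F13a1, 211 in Mrc1 and 2 in Ctss. Another element, the Y box with the letters CTGATTGG, is known from promoters of MHC class II genes. On both strands it was found in 3 of the 29 promoters, those of H2-Aa, H2-Eb1 and Irf8, and in 4.10% of all promoters. The 250 bases upstream of H2-Aa and H2-Eb1 are printed with the Y box in capitals, starting 51 and 62 bases before the gene's start.
H2-Aa (chr17:34287824-34288073, minus strand): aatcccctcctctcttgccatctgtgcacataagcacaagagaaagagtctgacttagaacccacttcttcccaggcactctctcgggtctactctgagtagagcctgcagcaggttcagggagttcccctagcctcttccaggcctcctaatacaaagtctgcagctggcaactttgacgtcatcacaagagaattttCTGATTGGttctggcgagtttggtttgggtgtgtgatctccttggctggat
H2-Eb1 (chr17:34305617-34305866, plus strand): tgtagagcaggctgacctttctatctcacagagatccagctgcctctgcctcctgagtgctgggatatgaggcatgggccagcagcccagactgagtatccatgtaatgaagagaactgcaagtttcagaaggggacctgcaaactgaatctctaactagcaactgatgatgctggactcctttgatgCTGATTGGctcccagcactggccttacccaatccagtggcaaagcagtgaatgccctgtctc

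Among the resident markers, surface receptors for sugars, hemoglobin and hyaluronan stood well above Timd4 and Folr2. Mrc1, the mannose receptor (chr2:14229392-14332057, mm10), had 9.75 TPM in replicate 1 and 7.07 in replicate 2. Lyve1, a hyaluronan receptor (chr7:110850607-110863239), was at 9.56 and 5.55. Cd163, the scavenger receptor for hemoglobin and haptoglobin (chr6:124304656-124330527), was at 7.02 and 3.79. These receptors were all higher in replicate 1. Folr2, a folate receptor, was at 1.35 and 1.36 TPM with 33 counts in each library, and its locus overlaps an antisense gene, Gm10602, at 1.51 and 1.56 TPM. Timd4, a receptor for phosphatidylserine on dying cells, was at 0.51 and 0.34 TPM with 30 and 19 counts.

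Lyve1 is also a marker of lymphatic vessels and Pf4 of platelets, so the markers of those cells were read beside them. All 7 genes of a lymphatic list reached 1 TPM in the mean, among them the lymphatic factor Prox1 at 18.2 and 22.8 TPM, and none was 1.5-fold apart between the libraries in CPM. Their median CPM ratio of replicate 1 to replicate 2 was 1.02. The part of lymphatic cells in the Lyve1 level was not tested. F13a1, a transglutaminase of macrophages and platelets, was at 12.9 and 8.04 TPM, and Pf4, a chemokine of platelets and some resident macrophages, at 15.2 and 14.7. Of 7 megakaryocyte and platelet genes 2 reached 1 TPM, Itga2b at 1.39 and 1.46 and Ppbp at 1.81 and 2.51. The summed TPM of that list was 3.53 and 5.07, below Pf4 alone. Its part in the Pf4 level was not tested. Cx3cr1, the fractalkine receptor of resident cells and patrolling monocytes (chr9:119901616-120069879), had 1.43 TPM in replicate 1 but 3.14 in replicate 2, the reverse of F13a1. Its annotated span also holds Gorasp1, Csrnp1 and Xirp1 on the same strand, at 9.56, 6.62 and 44.0 TPM in replicate 1 and 11.9, 3.22 and 56.4 in replicate 2.

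Ccr2 was the lowest of the monocyte-derived and MHC class II markers. Its TPM was 0.39 in the first library and 0.90 in the second, with 41.7 and 81.7 counts (chr9:124101950-124113557). The counts were not whole, so reads were divided with another gene. Ccr2 was higher in replicate 2, and both values lie below 1 TPM.

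The H2 genes of MHC class II had low and even levels, and the gene of their invariant chain, Cd74, a higher one. H2-Aa, the alpha chain of I-A, was at 2.95 and 3.06 TPM in replicates 1 and 2, its partner H2-Ab1 at 2.77 and 2.51, and H2-Eb1, the beta chain of I-E, at 2.43 and 3.30. Cd74, the invariant chain that guides them through the cell, was at 9.81 and 9.85 TPM, above H2-Ab1 by a log2 ratio of 1.90 ± 0.10. The second quantification put that ratio at 0.94 and 1.68, since it gave H2-Ab1 6.18 and 3.82 TPM. These genes are highly polymorphic, and the sources used here do not say how reads with CAST alleles were treated. The alpha chain gene of I-E is annotated as the polymorphic pseudogene H2-Ea-ps and had 2.02 and 1.56 TPM. Of 19 other genes of the class II pathway and dendritic cells 7 reached 1 TPM. Ciita, the master regulator of class II genes, had 12 counts in each library (named after its values were seen). The highest of the list were the promoter-binding subunits Rfxap (9.81 and 9.32 TPM) and Rfxank (7.41 and 10.04) and the lysosomal reductase Ifi30 (7.66 and 6.60).

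Resident markers were compared with monocyte-derived and MHC class II ones within each library. Of the latter, 4 are genes of MHC class II or, for Cd74, of its invariant chain, and which cells carried them was not tested. Nor was the lymphatic part of Lyve1. The median over Lyve1, Timd4, Folr2, Cd163 and Mrc1 was 7.02 TPM in replicate 1 and 3.79 in replicate 2. That over Ccr2, H2-Aa, H2-Ab1, H2-Eb1 and Cd74 was 2.77 and 3.06, the values of H2-Ab1 and H2-Aa. The resident median was higher in both libraries, by 2.53-fold in replicate 1 and 1.24-fold in replicate 2, a mean log2 ratio of 0.83 ± 0.73. The SD is nearly as large as the ratio, so its size is not settled by these libraries. In summed TPM the resident set was higher in replicate 1 (28.19 against 18.35) and lower in replicate 2 (18.11 against 19.62). The sign in replicate 2 thus depends on the use of medians. Against Ccr2 alone the ratios were larger. Mrc1 exceeded Ccr2 by a log2 ratio of 4.64 in replicate 1 and 2.97 in replicate 2, Lyve1 by 4.62 and 2.62, Cd163 by 4.17 and 2.07, and Folr2 by 1.79 and 0.60. Timd4 was above Ccr2 in replicate 1 (log2 ratio 0.39) and below it in replicate 2 (-1.40). In replicate 1 their order is not resolved, since the deposited TPM intervals overlap (0.342 to 0.701 for Timd4, 0.299 to 0.578 for Ccr2). In replicate 2 the choice of resident marker decides the sign. Cx3cr1 differed from the others: its log2 ratio to Ccr2 was 1.87 and 1.80, the same in both libraries within 0.05 (SD), since both genes were higher in replicate 2.

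**Figure D2:**
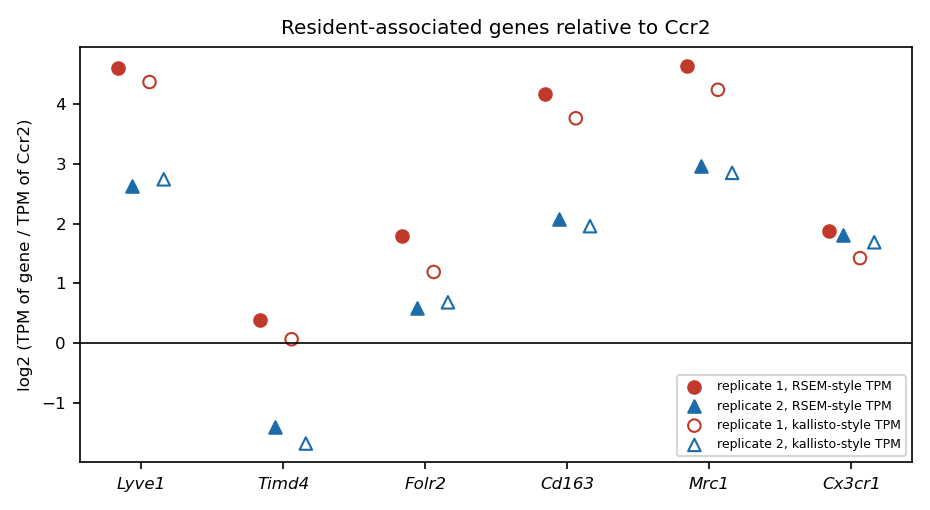
Log2 ratio of the TPM of 6 genes to that of Ccr2, with circles for replicate 1 and triangles for replicate 2, filled for the first quantification (RSEM-style tables) and open for the second (kallisto-style). Timd4 alone lies on both sides of 0, at 0.39 and -1.40 in the first quantification, and Cx3cr1 is the gene whose 2 filled points lie closest, at 1.87 and 1.80.

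The libraries were then compared gene by gene as ratios of CPM, with 95% exact Clopper-Pearson counting intervals. A gene was called when its CPM differed at least 1.5-fold and its mean expected count was at least 50, which 28 of the 33 genes had. Timd4, Folr2, Fcgr1, Aif1 and Trem2 fell short. Cd163 and Lyve1 were called higher in replicate 1, which is 2 of 28 beside 2.31% of the 12876 annotated genes with such counts. Cx3cr1, Ccr2 and Irf8 were called higher in replicate 2, 3 of 28 beside 1.78%. Among the 9228 genes in the range of counts of these 28 these shares were 2.69% and 2.28%. Over genes with at least 10 counts in the mean, the chi-square between the libraries came to 12.6 for each degree of freedom, so they differed by far more than sampling noise.

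Cd163 showed the largest excess in replicate 1, with 798 and 412 counts and a CPM ratio of 1.84 (1.63 to 2.08). Lyve1 had 563 and 329 counts and a ratio of 1.62 (1.42 to 1.87). Just below the threshold lay Lyz2 with 1.48 (1.35 to 1.61) and F13a1 with 1.47 (1.34 to 1.62). Both pass it when the libraries are scaled by TMM or DESeq2 size factors or compared in TPM. In the other direction Cx3cr1 had 140 and 314 counts and was 2.36-fold higher in replicate 2 (1.93 to 2.90). Ccr2 was 2.07-fold higher there (1.40 to 3.06), and Irf8, with 118 and 176 counts, 1.57-fold (1.24 to 2.00). Of the 5 resident markers, 2 were thus called higher in replicate 1, while Folr2 had a ratio of 0.949 and Cx3cr1, which resident cells also carry, was higher in replicate 2. Irf8 was below the threshold in the second quantification, while the other called genes passed it under every scaling tried. The 250 bases before the RefSeq start of Cd163 and Cx3cr1, the genes with the largest difference in each direction, are printed without capitals, since neither AGGAAGT nor CTGATTGG occurs in their windows. The RefSeq start of Cx3cr1 lies inside the span that GENCODE gives the gene.
Cd163 (chr6:124304401-124304650, plus strand): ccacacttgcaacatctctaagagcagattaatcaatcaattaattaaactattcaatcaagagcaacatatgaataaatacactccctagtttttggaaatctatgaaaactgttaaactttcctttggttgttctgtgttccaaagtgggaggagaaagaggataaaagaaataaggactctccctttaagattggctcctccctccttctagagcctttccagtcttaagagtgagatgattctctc
Cx3cr1 (chr9:120068297-120068546, minus strand): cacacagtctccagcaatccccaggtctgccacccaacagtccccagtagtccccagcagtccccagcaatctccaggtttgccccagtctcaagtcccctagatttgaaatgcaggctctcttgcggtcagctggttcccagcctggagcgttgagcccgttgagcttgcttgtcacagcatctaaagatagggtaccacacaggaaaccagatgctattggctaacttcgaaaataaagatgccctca

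The other genes differed less. Mrc1, C1qb and C1qc had ratios of 1.35, 1.35 and 1.34, and C1qa one of 1.19. With Lyz2, F13a1, Cd163, Lyve1, Ptprc (1.27), Laptm5 (1.19) and Cd14 (1.41), these made 11 of 28 genes whose counting interval lay above 1, beside 12.0% of all genes and 9.69% of genes in their range of counts. The interval lay below 1 for 3 of 28 (Cx3cr1, Ccr2 and Irf8), beside 24.1% and 18.8%. Intervals of TPM deposited with the tables were also compared. They did not overlap for Lyz2, C1qb, C1qc, Mrc1, Cd163, Lyve1 and F13a1, higher in replicate 1 (7 of 28, beside 5.62% of all genes and 3.57% in the range of counts). They did not overlap for Cx3cr1 and Ccr2, higher in replicate 2 (2 of 28, beside 6.50% and 4.00%). H2-Aa, H2-Ab1, H2-Eb1 and Cd74 lay between 0.865 and 0.967, all with intervals that hold 1. Csf1r had a ratio of 1.07 (0.992 to 1.16), Adgre1 1.10, Tyrobp 1.15 and Cd68 1.02. The counting intervals of these genes hold 1, unlike those of the general markers Ptprc, Laptm5 and Cd14. The median ratio over the 28 genes was 1.12, beside 0.964 over all genes.

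**Figure D3:**
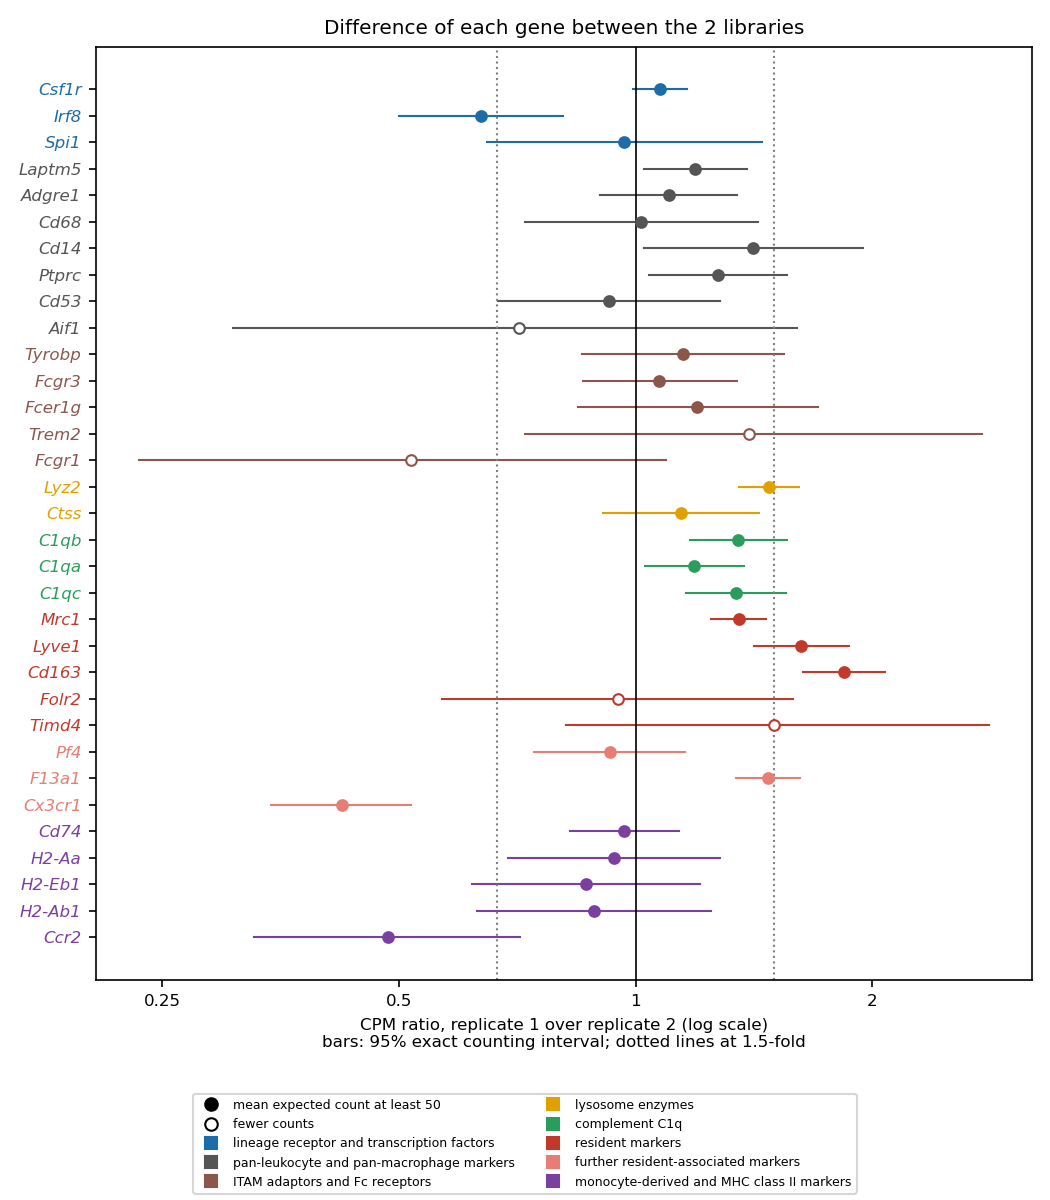
CPM ratio of replicate 1 to replicate 2 for the 33 genes on a log axis, with 95% exact counting intervals, open circles for genes under a mean of 50 counts and dotted lines at 1.5-fold. Cd163 (1.84) and Lyve1 (1.62) lie right of the lines, and Cx3cr1, Ccr2 and Irf8 lie left of them together with Fcgr1, which has too few counts to be called.

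Markers of other tissues and states also differed between these libraries. Of 6 lung epithelium genes with enough counts, 5 were called higher in replicate 1, among them the club cell proteins Scgb1a1 (1034 and 61 counts) and Scgb3a2 (525 and 29), while Sftpc of alveolar cells had 0 and 16 counts. The summed TPM of the 13 genes of that list was 388 and 251, most of it from Hopx, which cardiomyocytes also express (208 and 239 TPM). Genes of lung alveolar macrophages were at or near 0: Siglecf had 1 and 2 counts, Chil3 1 and 0, Marco 11 and 0, and Ear1 and Ear6 none. The list's only member above 1 TPM was Car4, which capillary endothelium also carries, at 34.5 and 26.4 TPM. Thymocyte genes summed to 1.27 and 0.17 TPM, with 82 and 1 counts of Rag1. Genes induced by glucocorticoids, a list added after the data were seen, were called higher in replicate 1 for 10 of 12, among them Fkbp5 (3.27-fold) and Per1 (2.93-fold). Cd163 is a known glucocorticoid-induced gene of macrophages. The part of lung tissue, thymus or hormone state in the differences of Cd163, Lyve1, Cx3cr1, Ccr2 and Irf8 was not tested. The letters of the full glucocorticoid response element were found on neither strand of the 29 promoters, and in 0.475% of all promoters. At so low a share, its absence from 29 windows of 300 bases tells nothing about these genes. Red cell genes summed to 24092 and 18484 TPM, led by the hemoglobins Hbb-bs and Hba-a1, and had a median ratio of 1.28 with no gene called. Among them Alas2, the first enzyme of heme synthesis in red cells, had a ratio of 1.44 (1.40 to 1.49). The part of blood in the differences of the macrophage genes was not tested. Endothelial, fibroblast and cardiomyocyte lists were nearly level, with median ratios of 1.04, 1.03 and 0.965 and no gene called.

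Further myeloid lists, chosen with earlier results known, set the 33 genes beside their relatives. Some of their members had mean levels far above Ptprc (1.87 TPM). Among them were Cd36 (674) and Selenop (135) of the resident list, Ly6c1 (114) and Fn1 (93.9) of the monocyte list, and the factors Cebpb (33.1) and Zeb2 (25.2). How much of these lists came from myeloid cells was not tested, so their ratios need not be those of myeloid cells. Over all genes, 2.31% were called higher in replicate 1 and 1.78% higher in replicate 2. Of 20 other resident macrophage genes 11 had enough counts, and 4 were called higher in replicate 1 and 0 in replicate 2: Cbr2 (2.99-fold), a reductase that lung epithelium also makes, Fcna (1.68), Mertk (1.63), a receptor for dying cells, and Siglec1 (1.56). Of 11 monocyte genes with enough counts, 3 were called higher in replicate 1 and 0 in replicate 2: Hp, which encodes haptoglobin, the ligand that brings hemoglobin to Cd163 (3.28-fold), Nr4a1 (1.67) and the integrin Itgam (1.58). No gene of the monocyte list was called in the direction of Ccr2 and Cx3cr1. Of 11 macrophage transcription factors with enough counts, 4 were called higher in replicate 1 and 0 in replicate 2: Cebpb (2.10), Klf4 (1.70), Ikzf1 (1.61) and Irf5 (1.60). Of the 11 complement partners, all with enough counts, only the activator Cfp was called (1.58), and of 4 chemokine ligands Ccl6 (1.88) and Ccl9 (1.73) were called, all higher in replicate 1. Class II pathway and growth factor lists had no called gene among 5 and 7. These called genes were named after their values were seen, and the median ratios of the lists were 1.15 (resident), 1.32 (monocyte), 1.33 (factors), 1.19 (complement) and 1.32 (chemokines), beside 1.02 (growth factors) and 0.949 (class II pathway). Of 13 phagocyte lysosome and lipid genes with enough counts, 1 was called, Lgals3 (1.55, higher in replicate 1), and the median ratio was 1.00.

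**Figure D4:**
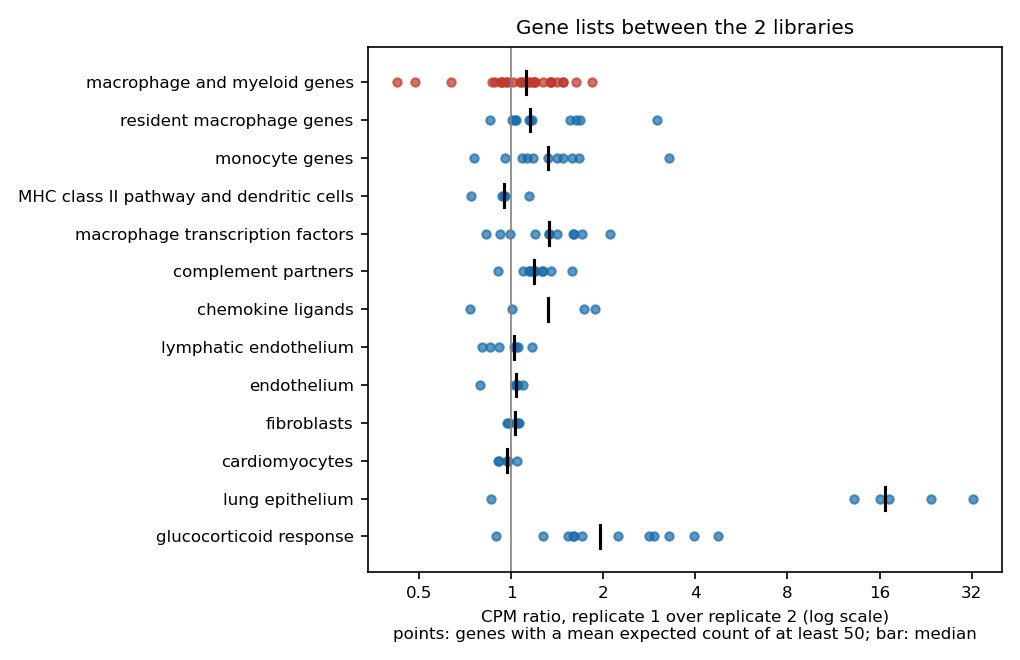
CPM ratio of replicate 1 to replicate 2 on a log axis for genes with a mean of at least 50 counts, by list, with a bar at the list median. The macrophage and myeloid genes spread to both sides around a median of 1.12, the cardiac, fibroblast and endothelial lists lie near 1, and the lung epithelium list reaches 32.4.

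Transcript tables show which forms of these genes were read. Of the 28 genes with a mean of at least 1 TPM, 24 have more than 1 annotated transcript. In 22 of the 24 a single transcript took 50% or more of the gene's TPM. The leader was protein-coding in 23 and the same in both libraries for 21. Both quantifications named the same leader for 18. For Mrc1, Cd163, Lyve1 and Cd74 they gave shares of the leader within 5 percentage points. Mrc1-201 held 99.3% ± 0.253 of Mrc1, and Cd163-201 82.7% ± 1.68 of Cd163, with the rest in Cd163-203, a transcript that keeps an intron. Lyve1 was divided between Lyve1-201 (68.7% ± 3.12) and the retained-intron form Lyve1-202 (31.3% ± 3.12), and the second quantification gave Lyve1-201 71.4%. Cd74-201 held 73.9% ± 2.39 of Cd74, beside 69.4% in the second quantification. The difference between the libraries was present in both kinds of transcript. Cd163-201 had 5.89 TPM in replicate 1 against 3.09 in replicate 2, and Cd163-203 1.13 against 0.70. Lyve1-201 had 6.36 against 3.93, and Lyve1-202 3.20 against 1.61.

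Transcripts of other genes were less well resolved. Csf1r-201 held 74.8% ± 9.38 in the first quantification and 89.3% in the second. H2-Eb1 was led in the mean of the first quantification by a form marked for nonsense-mediated decay, at 34.5% ± 21.5. That form had 19.3% in replicate 1, where a retained-intron form led at 33.7%, and 49.7% in replicate 2. Forms not annotated as coding made 53.1% and 94.8% of the gene in replicates 1 and 2. The second quantification gave 50.8% and 72.7%, so much of the H2-Eb1 level was not in transcripts annotated as coding. Pf4 had 44.1% and 27.1% in the retained-intron form Pf4-202 in the first quantification and none in the second. For Fcgr3 the order was the reverse, with Fcgr3-201 leading at 76.5% in the first and the retained-intron Fcgr3-203 at 71.5% in the second. Tyrobp-201 led in the first (82.2%) and Tyrobp-202 in the second (90.3%). Cx3cr1-201 held 84.0% ± 15.9 in the first, while the second led with Cx3cr1-203 at 44.9%. For these genes the level of the gene is better fixed than that of any transcript.

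**Figure D5:**
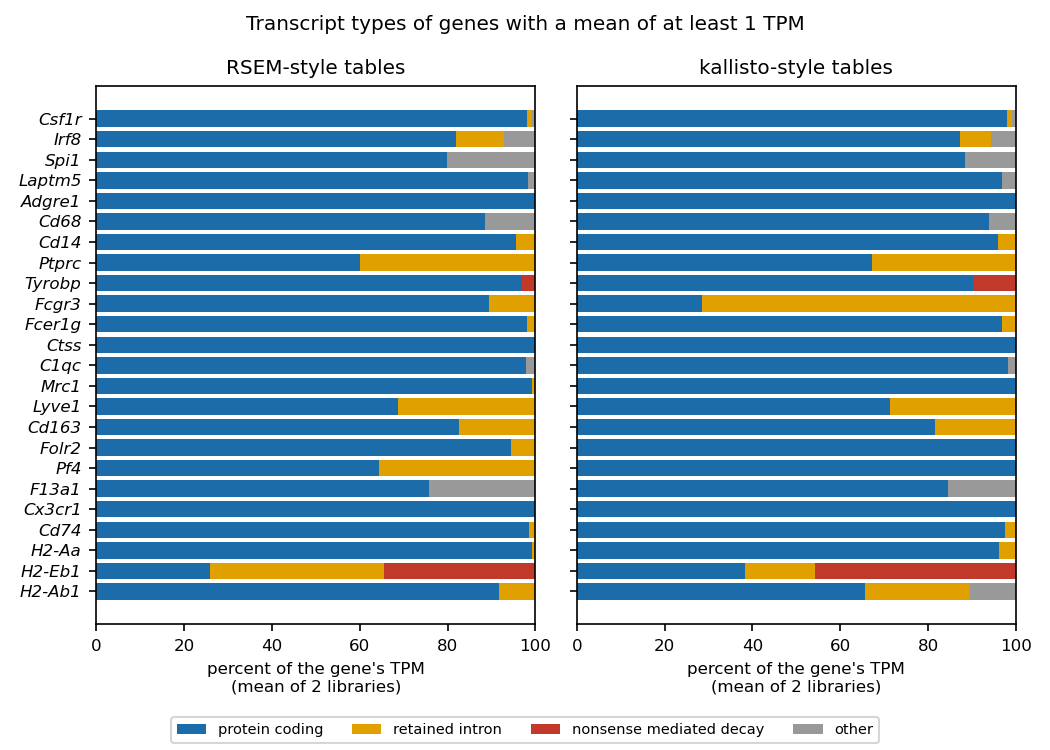
Percent of a gene's TPM by transcript type, as the mean of both libraries, for the 24 genes with a mean of at least 1 TPM and more than 1 annotated transcript, in the first quantification (left, RSEM-style tables) and the second (right, kallisto-style tables). Lyve1 and Cd163 show similar retained-intron parts in both panels, while Fcgr3 and Pf4 differ between them.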

How the data were processed

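Total RNA of 2 heart libraries was measured. Per the labels and the deposited readme, the files use mm10 and GENCODE M21. The aligner and programs were not given in the sources used here. For genes and transcripts, the first set of deposited tables holds expected counts, which are estimated and not normalized. It also holds the authors' TPM, posterior mean TPM and interval bounds, the last treated as a score of precision within 1 library. Its transcript tables add, per the file headers, each transcript's percent of gene TPM. In the second deposited set each transcript has an estimated count and a TPM.

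From these, CPM ratios over annotated totals (36197643 and 34358598 counts) and their exact intervals were computed with Python 3.11.15 and scipy 1.17.1. Counts were rounded for edgeR 4.0.16 (TMM) and DESeq2 1.42.0 (size factors), used under R 4.3.3 as alternative scalings only. They shifted log2 ratios by 0.04 and 0.06. The calling rule was tested on simulated data for 12876 genes. It found 99% of 100 genes set 2-fold higher in replicate 1 and 99% of 100 set higher in replicate 2, and called 0.181% of unchanged genes. The simulated counts held sampling noise only. The libraries differed by far more (chi-square 12.6 for each degree of freedom), so these rates do not carry over to them.

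The genes, lists, 18 pairs and thresholds were chosen with earlier results of these data known. Named genes are all 33, both genes of each pair, some of the highest genes of other lists and some called genes of the lung list. Others were named after their values were seen, which is said at some of them. Symbols not in the annotation were left out of lists. Promoters came from RefSeq, and 9 of the 33 genes had no entry used here.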

Additional observations from a re-analysis of the deposited data

How the results depend on the processing

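The median of the 33 mean levels, 3.44 TPM, was 3.86 with the posterior mean TPM and 4.998 in the second quantification. Without either replicate it was 3.42 to 3.46, and the number of genes at 1 TPM 28 to 29. The log2 ratio of resident to monocyte-derived and MHC class II medians was above 0 under every alternative run, most of them averaged over both libraries. It was 0.25 with means, 0.57 in the second quantification and 3.12 with Ccr2 as the only monocyte marker. The 0.25 averages a higher resident set in replicate 1 and a lower one in replicate 2. Without either replicate the ratio of medians was 0.31 to 1.34, so replicate 1 sets most of its size: it is 0.31 without that library. The count of genes higher in replicate 1, 2 as reported, was 4 with TMM, 4 with DESeq2 size factors, 4 in TPM, 0 at a 2-fold threshold, 11 when the counting interval excludes 1, and 7 when the deposited intervals were apart, an alternative added after seeing the data. The count higher in replicate 2 was 2 to 3 under these alternatives, and 4 with a count minimum of 10 or none. The sign of the difference held under all scalings for 22 of 28 genes, the exceptions being Cd68, Adgre1, H2-Ab1, Cd74, Spi1 and Pf4. With a minimum of 5 TPM, 10 of 10 genes had a leading transcript of at least 50%. The cause of these changes was not tested. No paired analysis was possible because there is 1 group. Depth limits Timd4, Folr2, Fcgr1, Aif1 and Trem2, whose intervals of the ratio hold 1.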

Other observations

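Mast cells were seen through 5 of 6 genes at 1 TPM or more, among them the proteases Cma1 at 2.15 and 1.83 TPM in replicates 1 and 2, Tpsb2 at 2.18 and 1.95, and Cpa3 at 1.19 and 1.12. Their CPM ratios were 1.16, 1.11 and 1.04, with counting intervals that hold 1. Of 10 neutrophil genes 2 reached 1 TPM, and the list summed to 4.32 and 4.44 TPM. Of 10 T and NK cell genes 0 did so, with a sum of 5.45 and 1.97 TPM and 21 and 6 counts of Cd3e (named after its values were seen). The 7 B cell genes summed to 10.6 and 9.12 TPM.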
